A study of Mus musculus with 8 samples.

Results

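The 8 genes described here encode transcription factors that direct the formation of neutrophils: Cebpa, Cebpb, Cebpd and Cebpe of the C/EBP family, the ETS factor PU.1 (gene Spi1), the zinc finger repressor Gfi1, Runx1 and the interferon regulatory factor Irf8. They were found as every non-control probe of the array whose RefSeq transcript belongs to one of these genes, which gave 9 probes of 55681, with 2 for Runx1 and 1 for each of the other genes. Expression was measured in neutrophils of the bone marrow, taken by magnetic beads as the fraction carrying Ly6G, a surface protein of neutrophils. There were 4 samples of mice labelled ATF3 KO, for knockout of the stress-induced transcription factor ATF3, and 4 samples of wild-type (WT) mice, all on the C57BL/6 background and each on 1 single-colour Agilent array. The labels give no age and no description of the deleted allele. The design text has RNA taken directly after sorting, whereas the descriptions of 7 of the 8 samples name a culture in methylcellulose with 4-OHT and that of WT replicate 1 calls it unmanipulated. This conflict was not resolved. The labels do not state whether each sample is a separate animal, so the p-values given here reflect variation among these samples alone, which may be technical.

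Neutrophils arise in the marrow from granulocyte-monocyte progenitors. PU.1 and C/EBPα, together with RUNX1, set up the myeloid programme in these progenitors. GFI1 then favours granulocytes and IRF8 favours monocytes and dendritic cells, while C/EBPε drives the genes of secondary granules in the later stages and C/EBPβ and C/EBPδ act in inflammation and under demand. C/EBP factors and ATF3 are both basic leucine zipper proteins, and ATF/CREB proteins are known to bind the cyclic AMP response element (CRE), TGACGTCA, and its core, TGACG.

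The bases before the start of a gene are where such an element would usually be looked for, so the 250 bases before the RefSeq starts (build GRCm38.p6) were searched on both strands for the CRE, for the core and for the AP-1 element TGACTCA. The table of promoter sequences held 8 such windows for 5 of the genes, namely Cebpa, Cebpb, Gfi1, Irf8 and Runx1. Among these 8 windows only that of Cebpb held any of the 3 motifs. It held the core 3 times, and the core is also part of any CRE. Of all 32851 windows of this length in the table, 17.8% held the core at least once and 0.688% at least 3 times, 1.55% held the CRE and 4.46% held the AP-1 element. The windows of Cebpb (chr2:167688665-167688914, plus strand), Cebpa (chr7:35119043-35119292, plus strand) and the upstream start of Gfi1 (chr5:107725806-107726055, minus strand) are shown because Cebpb carries the matches and Cebpa and Gfi1 gave the largest measured differences. Capitals mark the core TGACG on either strand, and each run reads 5′ to 3′ on the strand of the gene.
Cebpb: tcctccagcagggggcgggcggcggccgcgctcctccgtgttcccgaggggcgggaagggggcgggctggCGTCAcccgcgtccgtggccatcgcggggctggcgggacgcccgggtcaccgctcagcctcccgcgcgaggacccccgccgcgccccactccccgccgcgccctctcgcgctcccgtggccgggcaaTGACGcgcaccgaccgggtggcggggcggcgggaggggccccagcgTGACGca
Cebpa: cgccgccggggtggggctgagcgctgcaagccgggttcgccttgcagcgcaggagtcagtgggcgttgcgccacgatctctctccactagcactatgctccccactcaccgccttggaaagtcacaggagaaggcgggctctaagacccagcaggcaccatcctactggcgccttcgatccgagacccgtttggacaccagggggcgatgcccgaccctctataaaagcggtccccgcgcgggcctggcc
Gfi1: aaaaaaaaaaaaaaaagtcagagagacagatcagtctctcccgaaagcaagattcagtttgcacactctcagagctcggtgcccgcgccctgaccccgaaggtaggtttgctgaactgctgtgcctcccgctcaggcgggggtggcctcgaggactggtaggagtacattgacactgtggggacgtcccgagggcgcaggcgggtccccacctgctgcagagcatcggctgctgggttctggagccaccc
In Cebpb the matches begin 180, 53 and 7 bases before the start, the first of them on the opposite strand. These are matches of letters and not measured binding sites.

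All 9 probes were well above background on all 8 arrays, so each factor was measured in both genotypes. Values are the log2 of the background-subtracted probe signal minus the log2 of the 75th percentile of the same array. The genotypes are compared within each probe, while the marker sums and the within-array differences given below combine levels of different probes. None of the 8 genes passed limma's threshold (Benjamini-Hochberg adjusted p under 0.05 over 21251 genes), where 0.447% of all genes tested passed and 0.08% passed as lower in ATF3 KO, and the smallest adjusted p among the 8 was 0.188. At an unadjusted p under 0.05 there were 3 of the 8, Cebpa, Gfi1 and Runx1, all lower in ATF3 KO. Of all genes tested, 23.9% lay under that level, 14.5% lower and 9.38% higher in ATF3 KO. The same 3 had all 4 ATF3 KO arrays below all 4 WT arrays, and the groups did not overlap for 15.1% of all genes tested, 10.9% lower and 4.13% higher in ATF3 KO. The number of separated genes among the 8 was 0 with quantile normalization, with median scaling and with the percentile over probes detected on all arrays, and 1 with the deposited log2 table. The measured difference was below 0 for all 8 genes with this scaling, but it was also below 0 for 65.5% of all genes tested, and with other scalings the sign turned for Cebpb, Cebpe and Irf8. Without WT replicate 1, whose description differs from the others, 1 of the 8 had an unadjusted p under 0.05. The median difference was −0.19 over the 8 genes and −0.11 over all genes tested.

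Cebpa, the factor without which granulocyte progenitors do not form, showed the largest difference of the 8. On the probe A_52_P168567 (NM_007678, chromosome 7) its log2 level was 1.91, 1.65, 1.97 and 1.39 in ATF3 KO replicates 1 to 4, against 1.997, 2.29, 1.99 and 2.07 in WT replicates 1 to 4. The groups did not overlap, although the highest ATF3 KO value and the lowest WT value were close, and ATF3 KO replicate 4 was lowest. The mean was 1.73 ± 0.27 in ATF3 KO and 2.09 ± 0.14 in WT (SD, n = 4 each), a log2 difference of −0.36 (SE 0.15, limma adjusted p = 0.188). As a fold this is 0.781, with a 95% interval of 0.622 to 0.98, and relative to the median of all genes the log2 difference was −0.25. The difference was −0.24 without ATF3 KO replicate 4, −0.21 with the percentile over probes detected on all arrays and −0.205 with the deposited log2 table.

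Gfi1, the repressor that holds back monocyte genes in developing granulocytes, had log2 levels of 3.33, 3.33, 3.21 and 3.07 in ATF3 KO, against 3.41, 3.52, 3.40 and 3.56 in WT (probe A_55_P1977008, NM_010278, chromosome 5). The groups did not overlap, and replicate 4 was again the lowest ATF3 KO array. The log2 difference was −0.24 (SE 0.10, limma adjusted p = 0.195), a fold of 0.849 with a 95% interval of 0.727 to 0.991. It was −0.08 with quantile normalization and −0.08 when the percentile came from probes detected on every array.

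Runx1, whose product with its partner CBFβ opens the blood programme and whose gene lies on chromosome 16, gave different results on its probes. On A_55_P2183438 (NM_001111022) the log2 level was 1.92, 1.75, 1.93 and 1.75 in ATF3 KO, against 2.04, 2.19, 1.94 and 2.08 in WT. These groups did not overlap, with a gap between ATF3 KO replicate 3 and WT replicate 3 that was small beside the spread of either group, and the log2 difference was −0.23 (SE 0.10, limma adjusted p = 0.203). It was −0.07 with the percentile over probes detected on all arrays, −0.11 with quantile normalization and −0.1375 with the deposited log2 table. On A_51_P206585 (NM_009821) the log2 level was 1.32, 1.19, 1.02 and 0.70 in ATF3 KO, against 1.19, 1.095, 1.23 and 1.104 in WT. There the groups overlapped, with ATF3 KO replicate 1 above and replicate 4 below every WT array, and the difference was −0.10 (SE 0.14, limma adjusted p = 0.656 over all probes kept). The first probe stands for the gene in all counts because its mean was higher, and the separation of Runx1 was therefore seen on 1 of its 2 probes.

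**Figure D1:**
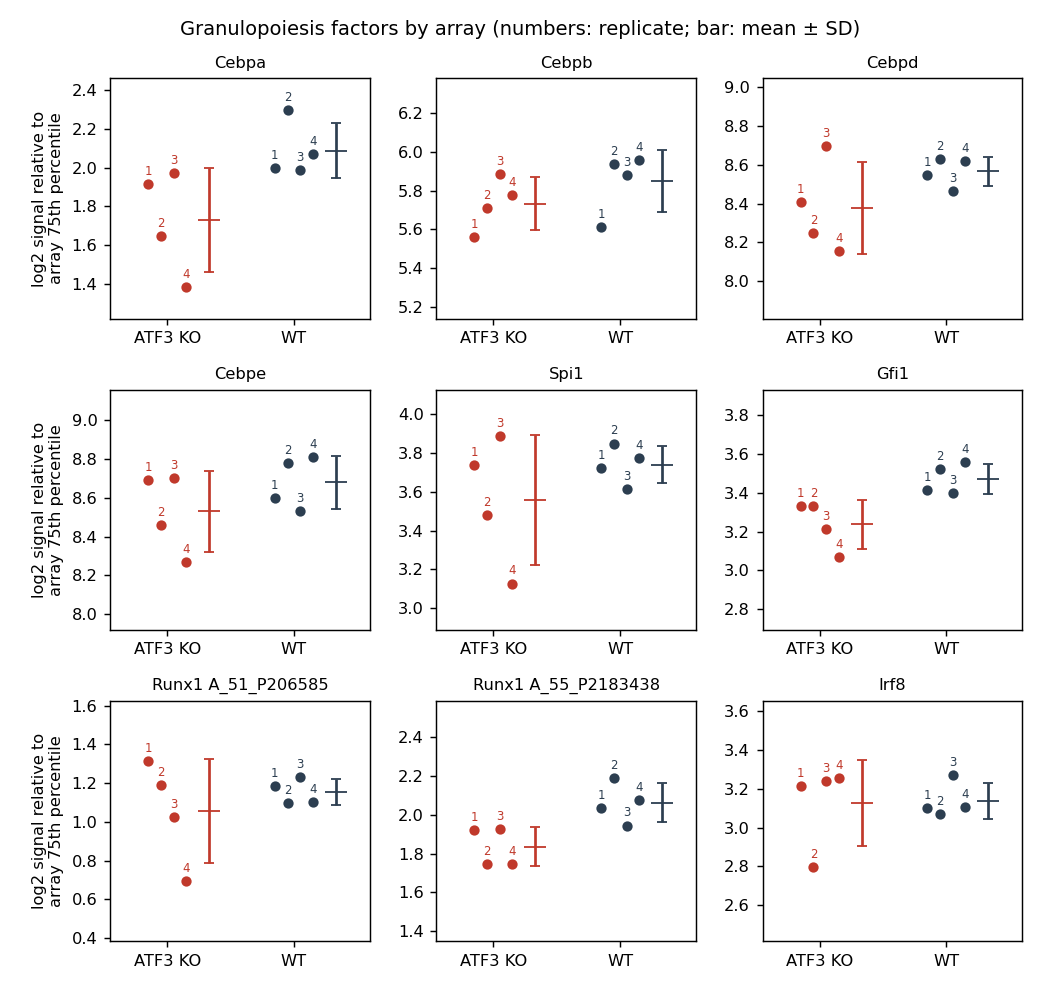
Log2 signal minus that of the array's 75th percentile (vertical axis, the same span of log2 units in every panel) for the 9 probes of the 8 factors, with ATF3 KO arrays left and WT arrays right, the replicate number beside each point and the group mean ± SD (n = 4) as a bar. The groups are apart for Cebpa, Gfi1 and the Runx1 probe A_55_P2183438, and ATF3 KO replicate 4 is the lowest array for Cebpa, Cebpd, Cebpe, Spi1, Gfi1 and both Runx1 probes.

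Spi1, whose product PU.1 acts by dose in the choice between myeloid and lymphoid fates, varied more among ATF3 KO than among WT arrays. Its log2 level was 3.74, 3.48, 3.89 and 3.13 in ATF3 KO, against 3.73, 3.85, 3.62 and 3.77 in WT (probe A_52_P498086, NM_011355, chromosome 2). ATF3 KO replicate 3 was the highest and replicate 4 the lowest of all 8 arrays, so the groups overlapped. The SD was 0.33 in ATF3 KO and 0.10 in WT (n = 4 each), and the log2 difference was −0.18 (SE 0.16, limma adjusted p = 0.462). Without ATF3 KO replicate 4 the difference was −0.04.

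Cebpe, which is needed for secondary granules and the last steps of neutrophil maturation, had log2 levels of 8.69, 8.46, 8.70 and 8.27 in ATF3 KO, against 8.60, 8.78, 8.53 and 8.81 in WT (probe A_55_P2165839, NM_207131, chromosome 14). The groups overlapped, and the log2 difference was −0.15 (SE 0.13, limma adjusted p = 0.448), with a fold interval of 0.738 to 1.0995. Without ATF3 KO replicate 4 it was −0.06, and with the percentile over probes detected on all arrays its sign turned, to 0.0015.

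Cebpd, an inducible C/EBP factor that is also high in maturing granulocytes, had log2 levels of 8.41, 8.25, 8.70 and 8.16 in ATF3 KO, against 8.55, 8.63, 8.47 and 8.62 in WT (probe A_51_P444447, NM_007679, chromosome 16). ATF3 KO replicate 3 was above every WT array and the other 3 ATF3 KO arrays were below them. The log2 difference was −0.19 (SE 0.13, limma adjusted p = 0.350) and the fold interval ran from 0.718 to 1.07. It was −0.12 without ATF3 KO replicate 4 and −0.04 with the percentile over probes detected on all arrays.

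Cebpb, the factor of emergency granulopoiesis and the gene with the core matches shown above, had log2 levels of 5.56, 5.71, 5.89 and 5.78 in ATF3 KO, against 5.61, 5.94, 5.88 and 5.96 in WT (probe A_55_P2165869, NM_009883, chromosome 2). The groups overlapped, with replicate 1 the lowest array in each. The log2 difference of −0.12 (SE 0.12, limma adjusted p = 0.519) was close to the median difference of all genes, and its sign turned with quantile normalization, with the percentile over probes detected on all arrays and with the deposited log2 table. Its fold interval ran from 0.771 to 1.106.

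Irf8, the factor that steers progenitors to monocytes and dendritic cells and is also expressed in B cells, had nearly the same mean in both groups. Its log2 level was 3.22, 2.80, 3.24 and 3.25 in ATF3 KO, against 3.10, 3.07, 3.27 and 3.11 in WT (probe A_52_P354823, NM_008320, chromosome 8). ATF3 KO replicate 2 stood apart as the lowest of all 8 arrays, and the other 3 ATF3 KO arrays lay close together and within the range of the WT arrays. The difference was −0.01 (SE 0.12, limma adjusted p = 0.961), and it was 0.10 without ATF3 KO replicate 2. The 95% interval of its fold ran from 0.817 to 1.21.

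**Figure D2:**
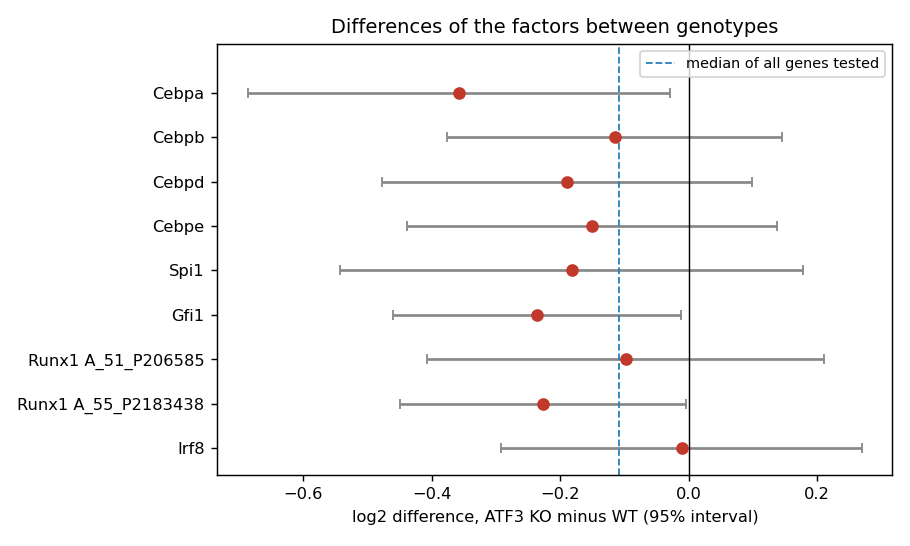
Log2 difference, ATF3 KO minus WT (horizontal axis), for the 9 probes of the 8 factors, with the 95% interval of each difference from limma, not adjusted for the number of genes, and the median of all genes tested as a dashed line at −0.11. The intervals of Cebpa, Gfi1 and 1 Runx1 probe end just below 0, the largest difference is −0.36 for Cebpa, and the interval of Irf8 is centred near 0.

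The low values of the ATF3 KO group were seen mostly on replicates 2 and 4. Replicate 4 was the lowest of all 8 arrays for 6 of the 8 genes and below the gene's own mean for 7, and over all genes tested it was the lowest array for 32.2%. The median deviation of the 8 genes from their own means was −0.30 in ATF3 KO replicate 4, where the median of all genes was −0.08, and −0.19 in ATF3 KO replicate 2, where that of all genes was −0.10. In ATF3 KO replicates 1 and 3 it was −0.01 and 0.10, and in WT replicates 1 to 4 it was 0.07, 0.17, 0.02 and 0.15. ATF3 KO replicate 4 also had the lowest 75th percentile of the processed signal, 112.5, where the other arrays lay between 138.5 and 215.7, and 46.0% of its probes were above background, where the others lay between 46.4% and 55.3%. The part of signal strength in these low values was not tested. The SD among ATF3 KO arrays was larger than among WT arrays for 6 of the 8 genes, Cebpb and Runx1 being the exceptions, and for 72.9% of all genes tested.

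**Figure D3:**
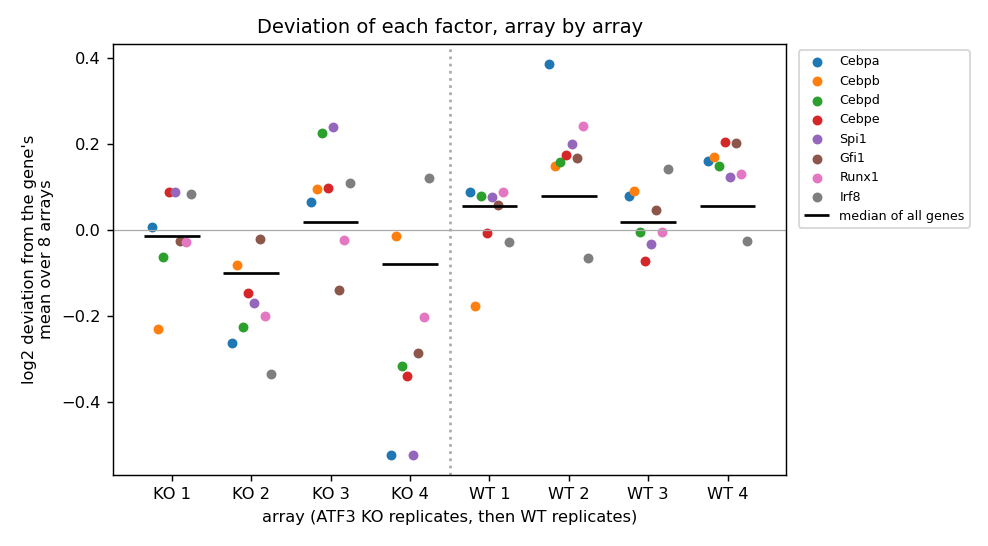
Log2 deviation of each of the 8 factors from its own mean over the 8 arrays (vertical axis, 1 colour per gene), array by array with the ATF3 KO arrays left, and the median deviation of all genes tested as a black bar. In ATF3 KO replicate 4 Cebpa and Spi1 lie farthest below their means while Irf8 lies above its own, and in ATF3 KO replicate 2 all 8 factors lie below their means.

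The factors did not all follow the same course over the arrays. The closeness of 2 genes was taken as the root mean square difference of their log2 values over the 8 arrays after each gene's own mean was removed, and a small value means alike profiles. Of the 28 pairs of the 8 genes, Cebpd and Cebpe were the closest at 0.087, followed by Gfi1 and Runx1 at 0.092 and Cebpe and Spi1 at 0.094. Cebpa and Irf8 were the farthest apart at 0.29, followed by Spi1 and Irf8 at 0.27. Among 11714 other named genes above background on all arrays, the closest to each factor were Dglucy and Ap4s1 for Cebpa, Gm9199 and Ets1 for Cebpb, Vps28 and Trim11 for Cebpd, and Tbc1d20 and Wdr24 for Cebpe. They were Rnasek and Fkbp8 for Spi1, Txnrd1 and Atxn1 for Gfi1, 1700010I14Rik and Rnf166 for Runx1, and Pdf and Fbxw10 for Irf8. These differences ran between 0.015 for Vps28 and 0.066 for Fbxw10, and among so many genes close profiles over 8 arrays are also found by selection.

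A constant added to all log2 values of an array, as in scaling to a percentile or a median, leaves the difference between 2 factors within that array as it is, while quantile normalization can change it, and 4 such pairs were compared. The log2 value of Cebpa minus that of Spi1 was −1.82, −1.83, −1.92 and −1.74 in ATF3 KO, against −1.73, −1.56, −1.63 and −1.70 in WT. All 4 ATF3 KO values were below all 4 WT values, and the groups differed by −0.18 (two-sided exact permutation p = 0.0286, adjusted p = 0.114 over the 4 pairs). No smaller p can be had from 4 against 4. The shift was −0.08 with normexp background correction (exact permutation p = 0.286), where it no longer separated. Cebpe minus Cebpa was higher by 0.21 in ATF3 KO (exact permutation p = 0.0571, adjusted p = 0.114), at 6.80 ± 0.06 in ATF3 KO and 6.59 ± 0.11 in WT (SD, n = 4 each). It was 0.06 with quantile normalization (exact permutation p = 0.429) and 0.015 with the deposited log2 table. Cebpb minus Cebpa differed by 0.24 (exact permutation p = 0.143, adjusted p = 0.190) and Irf8 minus Gfi1 by 0.23 (exact permutation p = 0.257, adjusted p = 0.257). With 4 arrays a group, no adjusted p over these pairs could pass 0.05 unless at least 3 of the 4 pairs separated fully.

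**Figure D4:**
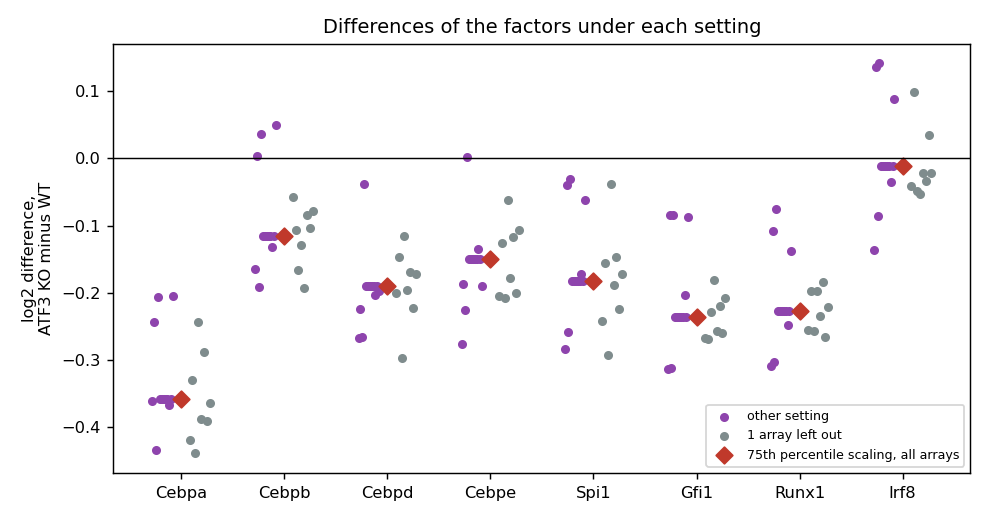
Log2 difference, ATF3 KO minus WT (vertical axis), of each of the 8 factors with the scaling used here (diamond), under other processing settings (purple) and with 1 array left out (grey). All points of Cebpa, Cebpd, Spi1, Gfi1 and Runx1 lie below 0, and those of Cebpb, Cebpe and Irf8 fall on both sides of it.

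Genes that act with these factors or under them were described from 6 lists, which hold 93 genes. Of these, 89 were tested, and 1 passed limma's threshold, Gata2, where 0.447% of all genes tested passed. At an unadjusted p under 0.05 there were 21 (23.6%), 8 higher and 13 lower in ATF3 KO. Of all genes tested, 23.9% lay under that level, 9.38% higher and 14.5% lower. The median difference of the 89 genes was −0.10, where that of all genes was −0.11.

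Among 25 tested partners and direct regulators, 0 passed by limma. At an unadjusted p under 0.05, 1 was higher and 5 lower, where 9.38% of all genes tested were higher and 14.5% lower. Irf4, a relative of Irf8 that acts in B cells and macrophages, differed by 0.57 (SE 0.15, limma adjusted p = 0.109). Trib1, a pseudokinase that brings C/EBPα to degradation, differed by −0.27 (SE 0.09, limma adjusted p = 0.154), and Cbfb, the partner of RUNX1, by −0.33 (SE 0.11, limma adjusted p = 0.156). For Trib1 and Cbfb all ATF3 KO arrays were below all WT arrays, as for 10.9% of all genes tested. For Irf4 all were above them, as for 4.13% of all genes tested. The median of the list was −0.13.

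Of 26 other transcription factors of blood formation, Gata2, a factor of stem, mast and basophil cells, was the gene that passed. Its log2 level was −1.59 ± 0.16 in ATF3 KO and −2.34 ± 0.19 in WT (SD, n = 4 each), a difference of 0.75 (SE 0.13, limma adjusted p = 0.0494). In 16 of 20 alternatives Gata2 was no longer called, with limma adjusted p between 0.028 and 0.168 over all of them. Egr1, an immediate early factor, had 1.85 ± 0.36 in ATF3 KO and 2.66 ± 0.17 in WT, a difference of −0.81 (SE 0.18, limma adjusted p = 0.0913). It passed in 3 of 20 alternatives. These were normexp, trend and robust variances, and leaving out ATF3 KO replicate 1 (limma adjusted p = 0.0252, 0.0406 and 0.0377). Zeb2 differed by −0.40 (SE 0.12, limma adjusted p = 0.140). The median of the list was −0.10.

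Granulocyte genes known to be driven by C/EBP factors had a median difference of 0.0020 over 14 tested genes, 0.11 above the median of all genes. None of the 14 passed limma's threshold. At an unadjusted p under 0.05, 3 were higher and 1 lower, where 9.38% of all genes tested were higher and 14.5% lower. Csf3r, the receptor for G-CSF, had 9.03 ± 0.14 in ATF3 KO and 8.72 ± 0.12 in WT (log2 difference 0.31, SE 0.11, limma adjusted p = 0.159). Camp, the cathelicidin of secondary granules, differed by 0.35 (SE 0.13, limma adjusted p = 0.168), and its sign turned with quantile normalization and with the deposited log2 table. Cybb, the catalytic subunit of the NADPH oxidase, differed by −0.33 (SE 0.12, limma adjusted p = 0.171).

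Of 16 genes driven by PU.1, 0 passed by limma, with a list median of −0.16. At an unadjusted p under 0.05, 3 were higher and 2 lower, where 9.38% of all genes tested were higher and 14.5% lower. Il7r, the interleukin-7 receptor of lymphoid progenitors, differed by 0.91 (SE 0.22, limma adjusted p = 0.106) and was above background on 3 of the 4 WT arrays. Adgre1, the macrophage marker F4/80, differed by −0.37 (SE 0.13, limma adjusted p = 0.157). Of 10 tested genes repressed by GFI1, 0 passed by limma and Egr1 alone was under an unadjusted p of 0.05, with a list median of −0.11. The next in order were Egr2, at −0.31 (SE 0.16, limma adjusted p = 0.258), and Csf1r, the M-CSF receptor, at −0.16 (SE 0.12, limma adjusted p = 0.396). With normexp background correction Egr2 differed by −0.03 and Csf1r by −0.30. With the percentile over probes detected on all arrays Csf1r differed by −0.0081. Of 10 tested genes activated by IRF8, 0 passed by limma, 1 was higher and 2 lower at an unadjusted p under 0.05, and the median was −0.11. Ciita, the switch gene of MHC class II, differed by 0.72 (SE 0.21, limma adjusted p = 0.132) and Batf3, a dendritic cell factor, by −0.51 (SE 0.15, limma adjusted p = 0.132). With normexp background correction these differences were 0.51 and −0.20.

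**Figure D5:**
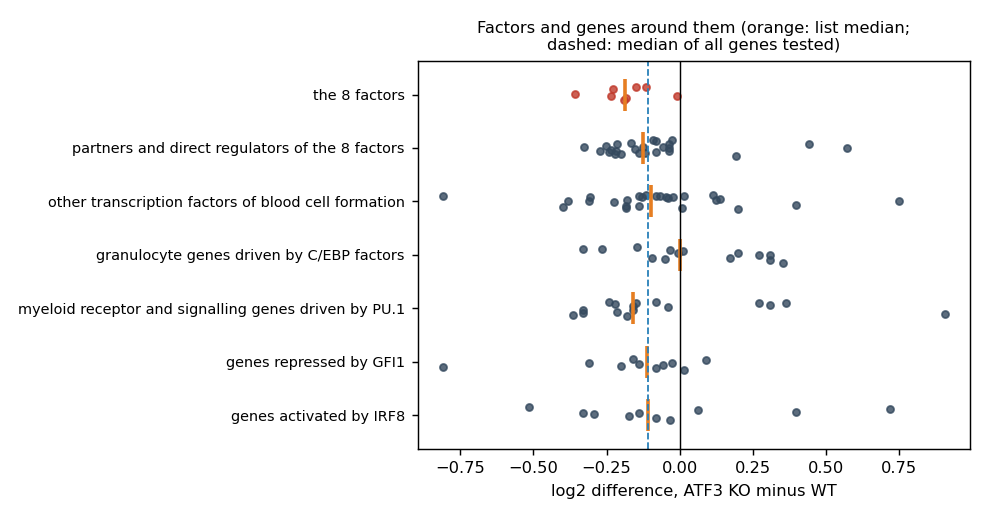
Log2 difference, ATF3 KO minus WT (horizontal axis), of the 8 factors (top row) and of the tested genes of the 6 lists around them (1 point per gene, vertical scatter has no meaning), with each list's median in orange and the median of all genes tested as a dashed line at −0.11. The list medians lie between −0.16 for genes driven by PU.1 and 0.0020 for granulocyte genes driven by C/EBP factors, with −0.19 for the 8 factors.

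The fraction carried the neutrophil programme: all 13 neutrophil markers with a named probe were above background on all arrays, among them Lcn2, Camp and S100a9. Ly6g itself had no named probe here. The levels of these markers were summed on the linear scale, in multiples of the array's 75th percentile. The sum ran from 12980 to 15581 in ATF3 KO and from 10680 to 13530 in WT, so the groups overlapped. In each group the array with the lowest 75th percentile had the highest sum. These were ATF3 KO replicate 4 (percentile 112.5, sum 15581) and WT replicate 4 (percentile 150.8, sum 13530). Not every pair of arrays kept this order. The part of array signal strength in these sums and in the levels of these markers was not tested. Of the 13, 6 were higher in ATF3 KO at an unadjusted p under 0.05, where 9.38% of all genes tested were, and 0 passed by limma. Camp, 1 of these 6, changed sign with quantile normalization and with the deposited log2 table. Markers of promyelocytes and primary granules, a stage at which C/EBPα and GFI1 are known to act, summed to between 229 and 290.2 in ATF3 KO and between 295 and 328 in WT, so these groups did not overlap. The sum was mostly 1 gene, Cd63, a membrane protein of granules, which made up 88.6% of the mean sum in ATF3 KO and 89.6% in WT. Mpo, the myeloperoxidase of primary granules, overlapped between the groups, with a difference of −0.10. The part of this stage in the levels of Cebpa, Gfi1 and Runx1 was not tested. All 7 of these early markers had a difference below 0, as did 65.5% of all genes tested, and 0 passed by limma. At an unadjusted p under 0.05 there were 2, both lower, where 14.5% of all genes tested were lower. These 2 were Ms4a3, at −0.39 (SE 0.14, limma adjusted p = 0.159), and Cd63, at −0.26 (SE 0.10, limma adjusted p = 0.189). Their groups did not overlap, both lower, where 10.9% of all genes tested did so. Fcnb differed by −0.19, and the primary granule genes Elane, Ctsg and Prtn3 by −0.05, −0.03 and −0.0058. The median of the 7 was −0.10 against −0.11 for all genes. Cycling genes summed to between 144 and 168 in ATF3 KO and between 116 and 212 in WT. In sorted bulk samples, fewer cells of a stage and less RNA per cell cannot be told apart.

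Markers of other cells that express Irf8 or Spi1 were also measured. B lineage markers summed to between 110 and 124 in ATF3 KO and between 54.9 and 79.7 in WT, with all 11 above background, among them Cd79b, Jchain and Vpreb3. Dendritic cell markers summed to between 495 and 733 in ATF3 KO and between 355 and 478 in WT, with Xcr1 and Cd209a above background on no array. Monocyte markers summed to between 233 and 273 in ATF3 KO and between 240.2 and 269.8 in WT, and tissue macrophage markers to between 163 and 221 in ATF3 KO and between 209 and 266 in WT. Of the 8 macrophage markers all had a difference below 0, 6 had an unadjusted p under 0.05 and 1 passed limma's threshold, Vsig4, named after its values were seen, at −0.92 (SE 0.15, limma adjusted p = 0.0481). Over all genes tested 65.5% were below 0 and 14.5% were lower at that level. Of the 11 B lineage markers 9 were higher at an unadjusted p under 0.05 and of the 6 dendritic cell markers tested 3 were higher and 1 lower, where 9.38% of all genes were higher, and 0 of either list passed by limma. Both sums did not overlap between the groups, whereas those of monocytes and macrophages overlapped. Siglech, a receptor of plasmacytoid dendritic cells, made up 88.4% of the mean dendritic cell sum in ATF3 KO and 87.7% in WT. It also made up 90.5% of the difference between these mean sums, so the sum mostly followed 1 probe. The 3 higher dendritic cell markers were Siglech, Cd74 and H2-Eb1. On the log2 scale Siglech was at 8.95 in ATF3 KO and 8.55 in WT. Each on its own probe, Ccr9 was at −1.31 and −1.55 and Flt3 at −1.70 and −1.97. Zbtb46, a factor of conventional dendritic cells, differed by −0.45 (SE 0.14, limma adjusted p = 0.136), named after its values were seen. Jchain, a gene of plasma cells, averaged 45.8 in ATF3 KO and 14.7 in WT on the linear scale, which is 61.3% of the difference between the mean B lineage sums. The part of these cells in the levels of Irf8 and Spi1 was not tested. The summed stroma and endothelium markers did not overlap either, at 68.2 to 117 in ATF3 KO and 125 to 165 in WT. Of the 8 genes of that list all had a difference below 0, 4 were lower at an unadjusted p under 0.05 and 0 passed by limma. Taken singly, 2 of the 8 had groups that did not overlap, both lower in ATF3 KO, as for 10.9% of all genes tested. Of all genes tested, 65.5% had a difference below 0 and 14.5% were lower at an unadjusted p under 0.05. Cxcl12 made up 45.9% of the difference between the mean sums. The ranges of the late neutrophil, T and NK, eosinophil and basophil, erythroid, platelet and stem cell lists overlapped between the groups.

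The deleted gene does not check the labels. The Atf3 probe, for which the sources used here do not say whether it lies in the deleted part, gave 1.53, 1.00, 1.41 and 1.02 in the arrays labelled ATF3 KO, against 0.69, 0.82, 0.75 and 0.65 in those labelled WT. Its difference of 0.51 (SE 0.14, limma adjusted p = 0.121) ran against the labels if the probe lies inside the deletion, and every direction given here rests on the labels. All 8 arrays were on 1 slide, with ATF3 KO in one row and WT in the other, so the slide row and the genotype cannot be told apart. Over all genes tested 95 passed, 78 higher and 17 lower in ATF3 KO (82.1% higher, against 71.0% with quantile normalization, 62.2% with normexp, 52.6% with a filter of 1 array above background and 40.0% with no filter). Precision is limited by having 4 arrays a group.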

How the data were processed

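Cy3-labelled RNA was measured on Agilent arrays of a single colour, per the labels' protocols. In the deposited scanner output each spot has an intensity on a linear scale, background-subtracted and detrended within each array by Agilent Feature Extraction (10.9.1.1 per the file headers, 10.10 per the submitters' processing notes), with no scaling between arrays. The deposited table of the series holds log2 values, and neither their scaling nor their centring is given. Every column had its highest correlation with the median signal of the array it is named for, on the log2 scale (r of at least 0.998, across features), the column medians were 6.15 or 6.16, and it served as an alternative.

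Control spots and outlier spots (98 to 159 per array) were left out, spots of a probe were averaged, and the 75th percentile of each array's signal was set to 0 on the log2 scale. Of all probe values 50.02% were above background, so the percentile was taken over all probes. Probes above background on at least 4 arrays were kept (27948), and the probe with the highest mean stood for each of 21251 genes. Symbols came from RefSeq accessions looked up, versions dropped, among RefSeq genes of GRCm38.p6 (27235 of 55681 probes). The array design names mm9, so no gene coordinates of that table are given. Promoter windows came from RefSeq (GRCm38.p6). Genotypes were compared with limma 3.58.1 in R 4.3.3 (lmFit, eBayes), checked on simulated data, and single values with two-sided exact permutation tests. The 14 marker lists and 6 pathway lists, the members and the tests were chosen with earlier results of these data known. Of the pathway genes, 12 are in more than 1 pathway list and 17 also in a marker list. Genes named by rule are the 8 factors, Atf3, up to 3 of each pathway list with the smallest p, up to 3 of each marker list with the highest level, and the 2 closest profiles to each factor. Outside that rule, Vsig4, Zbtb46, Ccr9, Flt3, Elane, Ctsg, Prtn3 and Ms4a3 were named after their values were seen. Ly6g, Xcr1 and Cd209a were named for having no named probe or no signal above background.

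The normexp alternative used the median spot signal.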

Additional observations from a re-analysis of the deposited data

Results flagged for a closer look

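Of 56 groups of 4 arrays examined, 3 held an array far from the other 3, and chance gives about 1 in 20. Irf8 was 2.80 in ATF3 KO replicate 2, where the other 3 ATF3 KO arrays lay between 3.22 and 3.25 on the log2 scale. The summed level of dendritic cell markers was 733 in ATF3 KO replicate 4, where the other 3 lay between 495 and 534. The summed level of T and NK cell markers was 20.8 in WT replicate 3, where the other 3 lay between 23.2 and 23.5.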

How the results depend on the processing

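None of the 8 factors passed the adjusted threshold in any of the 20 alternatives, whose lowest adjusted p was 0.0902, for Gfi1 with normexp background correction. At an unadjusted p under 0.05 the number was 3 with all arrays, 1 with quantile normalization or the deposited log2 table, 0 with median scaling, with the percentile over probes detected on all arrays, with no filter on dim probes or with a replicate block, and from 0 to 3 with 1 array left out (0 without ATF3 KO replicate 4, WT replicate 2 or WT replicate 4, and 1 without ATF3 KO replicate 2 or WT replicate 1). The number with separated groups, 3, was 0 with quantile normalization, median scaling or the percentile over detected probes, 1 with the deposited log2 table, and from 3 to 4 with 1 array left out. Signs turned for Cebpb (0.0031 with quantile normalization, 0.0367 with the percentile over detected probes, 0.05 with the deposited table), for Cebpe (0.0015 with that percentile) and for Irf8 (0.14 with quantile normalization, 0.14 with that percentile, 0.0875 with the deposited table). With 1 array left out, Irf8 ran from −0.0532 to 0.0989 and was above 0 without ATF3 KO replicate 2 or WT replicate 3 (0.0340). Camp was −0.0037 with quantile normalization and −0.0275 with the deposited table.

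Over all genes 95 passed, against 251 with normexp (where Egr1 passed and Gata2 did not), 31 with quantile normalization, 217 with median scaling, 44 with the percentile over detected probes, 19 with a filter of 1 array, 10 with no filter, 58 with every probe tested, 192 with trend and robust variances, 212 with array weights, 149 with the deposited table and from 5 (without WT replicate 1 or WT replicate 3) to 226 (without ATF3 KO replicate 3) with 1 array left out. The share of calls that were higher was 82.1% with the main scaling, 62.2% with normexp, 71.0% with quantile normalization, 52.6% with the filter of 1 array (10 higher and 9 lower), 40.0% with no filter (4 higher and 6 lower), and 52.9% without ATF3 KO replicate 2 (9 higher and 8 lower). The pathway genes that passed were 1, against 0 after median scaling, quantile normalization or a percentile over detected probes, and with the filter of 1 array, no filter, every probe tested, the replicate block or the deposited table, and from 0 to 1 with 1 array left out. Replicate numbers are shared between the groups, but same-numbered arrays did not deviate together (r of 0.19, −0.13, −0.27 and 0.18, across genes, and 0 of 4 correlated best with their own number). A replicate block left 72 genes, and the smallest adjusted p among the 8 factors was then 0.267. The median difference of all genes was −0.11, against −0.18 with median scaling and 0.04 with the percentile over detected probes. The cause of these shifts was not tested.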
